A study of Mus musculus with 4 samples.

Results

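The Hist2 cluster is one of the places where the mouse genome keeps its replication-dependent histone genes close together. SSRP1 peaks of an interval named for this cluster were taken from ChIP-seq of E14 cells. These are an established line of mouse embryonic stem cells grown in serum with LIF. ChIP-seq enriches the DNA bound by a protein with an antibody and sequences it. All peaks on chromosome 3 of the mm9 build with a summit between 96000000 and 96310000 were kept, an interval of 310 kb chosen on earlier results because it was dense in peaks. This gave 50 peaks of 7353 in all, 23 of 5011 in the list of replicate 1 and 27 of 2342 in the list of replicate 2. The series labels 2 samples as SSRP1 ChIP and 2 as input, all of the same line, with no genetic change or treatment named. Data of the inputs were not analysed directly. Input signal may still be part of the authors' peak values, since the control used in calling is not named. Nothing says whether the replicates were separate cultures, so their spread may be technical. Positions count from 1 on mm9.

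SSRP1 and SPT16 form FACT, a chaperone that loosens nucleosomes ahead of polymerases by holding H2A-H2B dimers and puts them back behind. Replication-dependent histone genes supply H2A, H2B, H3 and H4 for new chromatin in S phase. They lack introns, and their mRNAs end in a stem-loop in place of a poly(A) tail. Embryonic stem cells divide fast and spend much of the cycle in S phase.

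All 10 histone genes named for the cluster were found in the RefSeq gene table, which is on another build (GRCm38.p6). In its order they are Hist2h2ab, Hist2h2ac and Hist2h2be, then Hist2h3c2, Hist2h2aa2, Hist2h2aa1 and Hist2h3c1, and last Hist2h4, Hist2h3b and Hist2h2bb. Their names give the product: 4 encode H2A, 3 encode H3, 2 encode H2B and 1 encodes H4. Bola1 comes before them and Fcgr1 after. Together they span 50.3 kb in that build, which is less than the interval. Between the last of them and Txnip, 287.8 kb on, the table lists 49 genes, of which 25 encode tRNAs and 8 snRNAs (among them Rnu1b1, Rnu1b2 and Rnu1b6, genes of the U1 splicing RNA). Terc, the template RNA of telomerase, is also among them. Peaks of the interval ran from 96023805 to 96302193 on mm9. If the histone genes span about as much on mm9, they cannot lie under all of these peaks. The name of the interval therefore does not make its peaks histone gene peaks. No annotation of mm9 was used, so no peak was assigned to a gene, exon, intron or UTR.

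The middle genes are an inverted copy. Hist2h3c2 and Hist2h2aa2 are on the minus strand, and Hist2h2aa1 and Hist2h3c1 on the plus strand, so that the H2A genes are transcribed away from each other, with an H3 gene on each outer side. In the 250 bases before the starts, Hist2h2aa1 and Hist2h2aa2 were identical at 196 of 199 aligned columns (98.5%). Hist2h3c1 and Hist2h3c2 were identical at 234 of 235 (99.6%). Short reads from such copies can be hard to place, and how they were treated is not given in the sources used here. The 150 bases before each start are given here, since these are the sequences in which the copies can hardly be told apart. They are from RefSeq on GRCm38.p6, and the different start annotated for each copy shifts one sequence against the other. Capitals mark the box CCAAT, the box TATAAA or the octamer ATTTGCAT known from H2B promoters, each on either strand.
Hist2h2aa2, chr3:96240375-96240524, - strand: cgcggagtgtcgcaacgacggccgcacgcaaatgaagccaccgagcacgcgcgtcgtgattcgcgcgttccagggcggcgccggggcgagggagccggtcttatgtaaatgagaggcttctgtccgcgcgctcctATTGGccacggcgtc
Hist2h2aa1, chr3:96245347-96245496, + strand: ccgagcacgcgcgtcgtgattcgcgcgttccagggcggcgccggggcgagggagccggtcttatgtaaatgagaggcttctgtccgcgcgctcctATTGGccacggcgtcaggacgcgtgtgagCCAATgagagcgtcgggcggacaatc
Hist2h3c2, chr3:96239128-96239277, - strand: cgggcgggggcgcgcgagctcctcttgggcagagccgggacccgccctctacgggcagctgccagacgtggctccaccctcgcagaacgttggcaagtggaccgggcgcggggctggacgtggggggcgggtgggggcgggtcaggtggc
Hist2h3c1, chr3:96246535-96246684, + strand: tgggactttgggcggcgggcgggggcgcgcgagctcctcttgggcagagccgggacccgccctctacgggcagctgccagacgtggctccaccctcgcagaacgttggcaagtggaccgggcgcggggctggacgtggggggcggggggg

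The other members with an entry are shown to give the contrast within the cluster. None of the other pairs of members aligned over more than 25 columns. Hist2h2be and Hist2h4 had no entry.
Hist2h2ab, chr3:96219735-96219884, + strand: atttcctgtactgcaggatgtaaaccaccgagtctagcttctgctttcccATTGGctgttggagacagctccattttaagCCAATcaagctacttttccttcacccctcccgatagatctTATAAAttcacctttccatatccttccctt
Hist2h2ac, chr3:96220881-96221030, - strand: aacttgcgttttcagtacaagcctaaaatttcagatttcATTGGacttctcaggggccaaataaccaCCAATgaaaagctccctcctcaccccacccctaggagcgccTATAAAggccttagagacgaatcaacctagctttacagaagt
Hist2h3b, chr3:96268504-96268653, + strand: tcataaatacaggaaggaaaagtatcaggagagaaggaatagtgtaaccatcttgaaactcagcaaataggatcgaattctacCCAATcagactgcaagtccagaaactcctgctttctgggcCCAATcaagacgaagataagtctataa
Hist2h2bb, chr3:96269550-96269699, + strand: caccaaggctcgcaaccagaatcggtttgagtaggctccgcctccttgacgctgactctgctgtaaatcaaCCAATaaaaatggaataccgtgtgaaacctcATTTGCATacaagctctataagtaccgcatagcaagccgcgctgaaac

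CCAAT was present in 6 of these 8 sequences, against 24.5% of all 32851 promoters in the same window of 150 bases. The H2A copies and the H3 copies of the inverted pair are nearly identical, so the 8 are not independent sequences. TATAAA was present in 2, in Hist2h2ab and Hist2h2ac, against 7.57% of all. The octamer was present in 1, in Hist2h2bb, against 0.998%. No marked motif overlapped another in these sequences. These are matches of letters and say nothing about SSRP1, whose peak sequences could not be read on mm9 here. The H3 copies of the inverted pair held none of the motifs and were 76.7% and 76.0% G and C, against 40.0% in Hist2h3b.

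SSRP1 peaks were closely packed in the interval and rare on the rest of chromosome 3. Replicate 1 had 74.2 peaks per Mb there and 1.54 per Mb elsewhere on the chromosome. Replicate 2 had 87.1 and 0.570. The interval was chosen for this density, so these values are a description. It held 8.98% of the chromosome's 256 peaks in replicate 1 and 23.9% of its 113 in replicate 2. Chromosome 3 was also cut into windows of 310 kb counted from the interval's start. In replicate 2 the next densest window held 7 peaks. In replicate 1 a window at 41130001 to 41440000 held more than the interval, 29 peaks, of which 4 overlapped a peak of replicate 2. In replicate 1 the nearest peaks outside were at 95908307 to 95908711 (fold 5.45) and at 96361821 to 96366539 (fold 18.5, 4719 bp wide), 91.5 kb before and 52.3 kb after the edges. In replicate 2 they were 527.9 kb before and 653.2 kb after, with folds of 5.06 and 5.98.

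**Figure D1:**
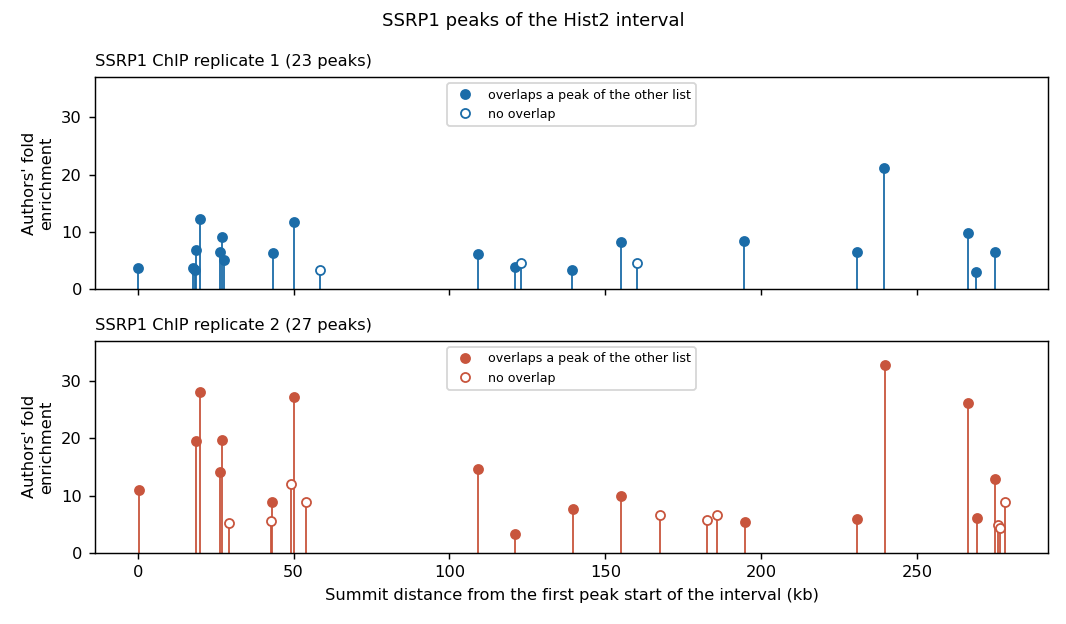
The height of each line is the authors' fold enrichment at a summit, and the horizontal axis is the distance in kb from the first peak start of the interval, for replicate 1 (above, 23 peaks) and replicate 2 (below, 27 peaks). Filled points overlap a peak of the other list and open points do not; a stretch of 50.5 kb without a summit in either list parts the peaks into a first and a second block.

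Peaks of the interval were wider than the other peaks of the chromosome by their medians. The median width was 436 bp in replicate 1 (quartiles 261.5 and 648 bp, range 200 to 1792 bp) against 279 bp for the other 233 peaks. In replicate 2 it was 416 bp (303.5 and 768.5 bp, range 223 to 1757 bp) against 345 bp for the other 86. The quartile ranges of the interval and of the other peaks (228 to 384 bp and 252.75 to 476 bp) overlapped in both lists. Very wide peaks were elsewhere, up to 6476 bp in replicate 1 and 3581 bp in replicate 2. Peaks covered 12.5 kb of the interval in replicate 1 and 16.98 kb in replicate 2.

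**Figure D2:**
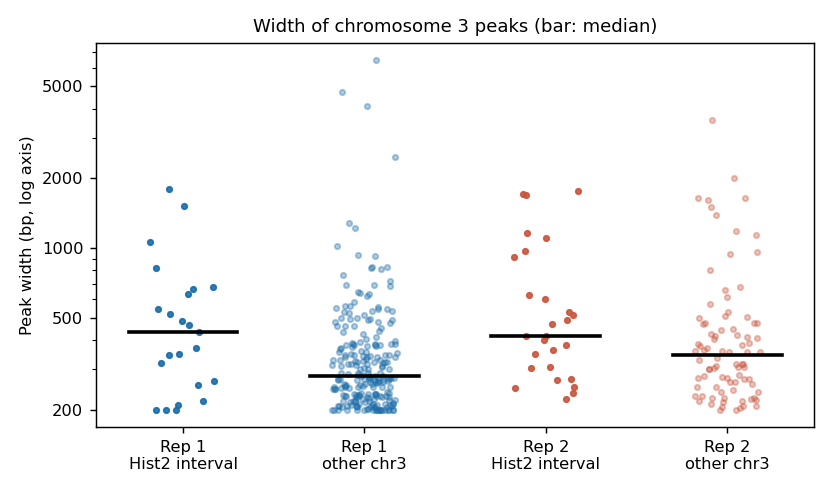
Each point is the width in bp (log axis) of one chromosome 3 peak, in the interval or elsewhere, by replicate, and bars are medians (436 and 279 bp in replicate 1, 416 and 345 bp in replicate 2). The widest points in both lists are outside the interval.

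The strongest sites of the interval were among the strongest of the chromosome. The authors' fold sets the ChIP signal at a summit against the background expected nearby. Its median was 6.29 in replicate 1 (range 2.97 to 21.2), against 4.49 for the other peaks of the chromosome. In replicate 2 the median was 8.86 (3.21 to 32.8), against 5.06. Folds of 10 or more were reached by 3 of 23 peaks in replicate 1 and by 11 of 27 in replicate 2. In the whole lists 3.57% and 11.4% of the peaks reached it. Among the other chromosome 3 peaks 3.43% (8 of 233) and 5.81% (5 of 86) did. Of the 10 highest folds on chromosome 3, 3 were in the interval in replicate 1 and 7 in replicate 2.

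Neighbouring summits lay a median of 7.61 kb apart in replicate 1 and 6.32 kb apart in replicate 2, against 108.4 and 74.1 kb elsewhere on the chromosome. The spacing was uneven. Of the distances between neighbours, 4 of 22 in replicate 1 and 5 of 26 in replicate 2 were under 1 kb, and the longest were 50.5 and 54.98 kb. Distances under 1 kb were about as common elsewhere on the chromosome, 38 of 231 and 12 of 84. With the lists joined and peaks within 1 kb taken as one site, the interval held 23 sites, which covered 6.92% of it. Of these, 15 had a peak in both lists, 3 in replicate 1 only and 5 in replicate 2 only. Such joined sites were not counted outside the interval. With peaks merged within 1 kb in each list alone, 15 of 18 in replicate 1 overlapped the other list, against 39 of 174 elsewhere on the chromosome. In replicate 2 it was 15 of 20, against 41 of 63 elsewhere. The shares thus differed far less in replicate 2, and neither difference was tested.

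Nearly all of replicate 1's peaks in the interval were found again, while replicate 2 held more than its partner list. In replicate 1, 20 of 23 peaks overlapped a peak of replicate 2 by at least 1 bp, which is 87.0% (exact 95% binomial interval 66.4 to 97.2%). The share was 27.7% in the whole list and 21.9% among the other chromosome 3 peaks (16.8 to 27.8%). In replicate 1, 56.5% of the interval's peaks had a −log10 q of 10 or more, against 16.3% of the other chromosome 3 peaks. With both lists kept to that minimum, 11 of 13 overlapped (84.6%), against 14 of 38 elsewhere on the chromosome (36.8%). In replicate 2, 17 of 27 overlapped, which is 62.96% (42.4 to 80.6%), against 54.9% in the whole list and 57.0% on the rest of chromosome 3 (45.8 to 67.6%). With the minimum of 10 it was 11 of 17 (64.7%), against 15 of 26 elsewhere on the chromosome (57.7%). With a minimum of 5 it was 56.5% against 59.2%. These binomial intervals cover counting error only. The interval was chosen because it was dense in peaks of these same lists, so its overlap is not free of that choice. Neighbouring peaks are also not independent, so the shares are a description and their difference was not tested. Without peaks whose background was over 2 times the lowest of their list, replicate 1 kept 11 peaks in the interval and replicate 2 kept 25. The share of replicate 1 was then 81.8%, against 18.6% on the rest of the chromosome. The share of replicate 2 was 32.0%, against 48.8% on the rest of the chromosome. These 2 shares are not alike, because both lists were filtered before the overlap. Replicate 2 could overlap only the 11 kept peaks of replicate 1 in the interval, while elsewhere 210 of 233 were kept.

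Overlapping peaks formed 17 pairs when each peak was used once, with its strongest partner. Their summits lay a median of 47 bp apart (0 to 422 bp), against 75 bp in the 47 other pairs of the chromosome and 57 bp in all 1233 pairs of the series. The summits were within 100 bp in 13 of the 17 pairs, in 29 of the other 47 and in 801 of all pairs. The median width was 518 bp in replicate 1 and 527 bp in replicate 2. Spearman's rho of the folds between the lists was 0.69 over the 17 pairs and 0.63 over the other 47, a description across sites that share their libraries. For the widths rho was 0.48.

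The first block ran from 96023805 to 96082480 and held 11 peaks in each list. It was split from the second at the longest stretch without a summit, a choice made after the positions had been seen. In replicate 1, 10 of the 11 peaks overlapped the other list, and 7 of 11 did in replicate 2. Its median fold was 6.29 in replicate 1 and 12.0 in replicate 2.

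At its start, replicate 2 had a peak of 967 bp at 96023805 to 96024771 with a fold of 10.9 from 78 fragments. Replicate 1 had a peak of the minimum width of 200 bp inside it, at 96023885 to 96024084, with a fold of 3.69 from 16 fragments. The summits were 422 bp apart, the longest distance in any pair of the interval, and this pair also had the highest ratio of folds, 2.95.

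Next came 4 pairs in couples of close neighbours, a grouping made after the positions had been seen. From left to right, their folds in replicate 2 were 19.6, 28.0, 14.0 and 19.7, and in replicate 1 they were 6.74, 12.2, 6.42 and 9.03. The right peak of each couple had the higher fold in both lists. The outer pairs were at 96041215 to 96042931 and 96050755 to 96052511 in replicate 2, 1717 and 1757 bp wide. The inner pairs were at 96043371 to 96044282 and 96050011 to 96050537, 912 and 527 bp wide. Inner summits were 6.61 kb apart in replicate 1 and 6.60 kb apart in replicate 2, and outer summits 8.39 kb apart in both. The step from an outer to an inner summit was 1090 bp on the left and 688 bp on the right in replicate 1, and 1091 and 699 bp in replicate 2. The steps differed between left and right, while each differed by at most 11 bp between the lists. Summits of the 4 pairs differed by 3, 2, 11 and 0 bp between the lists. Whether any of these peaks lie on the inverted copies of the H2A and H3 genes was not tested.

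In replicate 1 the outer peaks were broken up. The left peak of replicate 2, of 1717 bp, overlapped 3 peaks of replicate 1, including 2 weak ones at 96041625 to 96041824 (fold 3.74) and 96042115 to 96042332 (fold 3.27). The right peak, of 1757 bp, overlapped 2, the second at 96051492 to 96051811 with a fold of 5.10. Replicate 2 added a further weak peak on the right, at 96052618 to 96053242 with a fold of 5.20, 806 bp from the nearest peak of replicate 1.

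**Figure D3:**
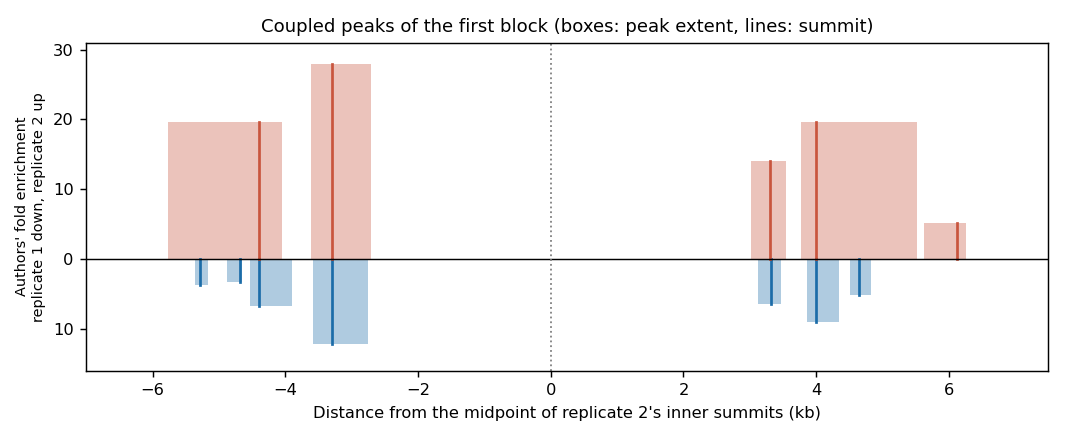
Boxes give the extent of each peak and lines its summit, with the authors' fold upward for replicate 2 and downward for replicate 1, against the distance in kb from the midpoint of replicate 2's inner summits. Inner summits stand 6.60 kb apart and outer ones 8.39 kb apart in replicate 2, and the outer peaks are wide in replicate 2 and split in replicate 1.

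The rest of the first block was made of 2 further pairs. At 96066961 to 96067217 in replicate 1 and 96066853 to 96067268 in replicate 2 the folds were 6.29 and 8.86. Replicate 2 had another peak 0.535 kb to the left, at 96066372 to 96066673, with a fold of 5.61. The stronger pair was at 96073660 to 96074202 and 96073627 to 96074227, with folds of 11.6 and 27.1, with rank 9 and rank 4 by fold on chromosome 3 in the respective lists. To its left, replicate 2 held a peak at 96072880 to 96073347 with a fold of 12.0, the highest of any unshared peak in the interval, although replicate 1 had a peak 312 bp away. Replicate 2 alone had a peak at 96077590 to 96078080 (fold 8.86), and replicate 1 alone one of 200 bp at 96082281 to 96082480 (fold 3.27).

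The second block ran from 96131985 to 96302193, with 12 peaks in replicate 1 and 16 in replicate 2, of which 10 in each list overlapped. Peaks were sparser than in the first block, with median spacings of 12.1 and 8.72 kb against 3.85 and 3.02 kb. Median folds were 6.28 and 6.59.

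The strongest site of the interval was in this block, at 96261939 to 96263730 in replicate 1 and 96262025 to 96263726 in replicate 2. It was 1792 and 1702 bp wide, its folds were 21.2 and 32.8, and its summits were 73 bp apart. It had rank 5 by fold on chromosome 3 in replicate 1 and rank 2 in replicate 2, with 211 and 391 fragments over the summit. No peak of replicate 2's whole list had more than 400 fragments. The next, 26.7 kb on by replicate 1's summits, was at 96289470 to 96290533 and 96289410 to 96290512, with folds of 9.78 and 26.2.

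A wide pair opened the block, at 96131985 to 96133496 in replicate 1 and 96132294 to 96133451 in replicate 2, with folds of 6.18 and 14.6. Near the end, the pair at 96298705 to 96299222 and 96298669 to 96299184 had folds of 6.39 and 12.9. Replicate 2 continued from it with unshared peaks at 96299487 to 96299735 (fold 4.93), 96300204 to 96300473 (fold 4.35) and 96301845 to 96302193 (fold 8.95).

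The other pairs of the block had folds under 10 in both lists. At 96178540 to 96179219 and 96178502 to 96178881 the folds were 8.18 and 9.94. The 3 pairs of the interval with the higher fold in replicate 1 were all in this block. They were at 96218064 to 96218727 in replicate 1 (folds 8.32 and 5.38), at 96254417 to 96254786 (6.55 and 5.88) and at 96144763 to 96144972 (3.78 and 3.21). The remaining pairs were at 96162973 to 96163408 in replicate 1 (3.42 and 7.64) and at 96292555 to 96292820 (2.97 and 6.15), where the summits were 384 bp apart.

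Unshared peaks of the block had folds within the range of its shared ones. Replicate 1 had them at 96146572 to 96147035 (fold 4.58) and 96183658 to 96184002 (fold 4.62). Replicate 2 had them, besides those at the end, at 96191099 to 96191321 (fold 6.55), 96206291 to 96206527 (fold 5.68) and 96209549 to 96209964 (fold 6.62). Over the whole interval, the 3 unshared peaks of replicate 1 had folds from 3.27 to 4.62, and the 10 of replicate 2 from 4.35 to 12.0. Of these 10, 5 lay within 1 kb of a peak of replicate 1, and none of the 3 lay that close to a peak of replicate 2. The same count was not made outside the interval, which was chosen for its dense peaks, so it is a description only.

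Folds were higher in replicate 2 in 14 of the 17 pairs of the interval. This was so for 63.9% of all 1233 pairs of the series and for 48.9% of the 47 other pairs on chromosome 3. With replicate 2 set over replicate 1, the log2 ratio had a median of 1.13 (SD 0.66 over pairs), against −0.04 (SD 0.50) for the other pairs of the chromosome. All 7 pairs of the first block were higher in replicate 2 (median log2 ratio 1.20, SD 0.35), and 7 of the 10 in the second (0.82, SD 0.72). Each list's fold is over its own background, so the ratio compares the lists and is no change in binding.

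**Figure D4:**
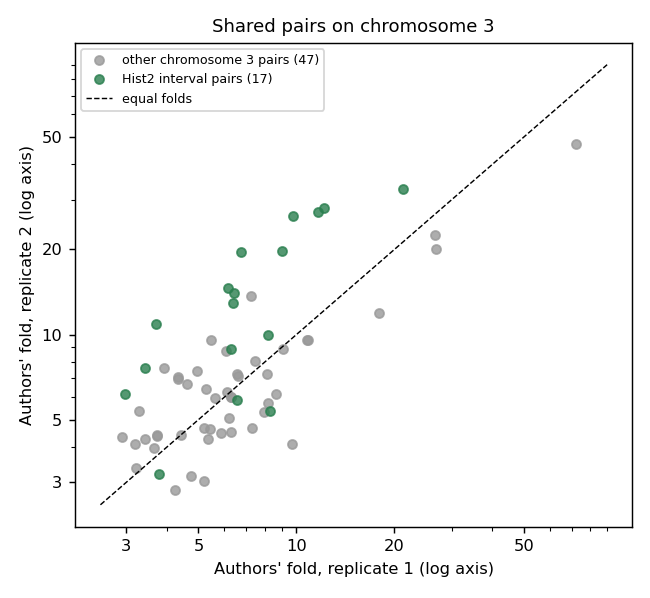
Each point is a shared pair of chromosome 3, with the authors' fold in replicate 1 across and in replicate 2 upward, both on log axes, and the dashed line marks equal folds. Of the 17 pairs of the interval 14 lie above the line, and of the 47 other pairs 23 do.

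The size of this difference depended on the background. Fragments over each summit and the background could be solved for from the fold and the p-value. In replicate 1 the peaks of the interval had 15 to 211 fragments over their summits (median 30), and in replicate 2 they had 31 to 391 (median 67), where each fragment counts as 0.416. The whole lists had medians of 19 and 44. The background is the fragment number expected at a summit, in the scaled units of its list. It may have been computed from the input samples, as the control used is not named. In the pairs its median was 5.08 in replicate 1, which is 2.23 times the lowest of its list (2.28). In replicate 2 it was 2.20, which is 1.06 times its lowest (2.07). None of the 17 pairs lay at the lowest background in replicate 1, and 8 did in replicate 2. In the whole lists 596 of 5011 and 1149 of 2342 peaks lay there, and on the rest of chromosome 3 it was 23 of 233 and 32 of 86. On the rest of chromosome 3 the median background of the peaks was 3.28 in replicate 1 and 2.33 in replicate 2.

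With fragments set over the lowest background of each list in place of the local one, 11 of 17 pairs were higher in replicate 2. The share was 40.1% of all pairs and 29.8% of the others on the chromosome. The median log2 ratio was then 0.06 (SD 0.56), against −0.25 (SD 0.45) for the others. In the first block 6 of 7 pairs were higher (median 0.75, SD 0.40), and in the second 5 of 10 (−0.02, SD 0.38). For the strongest site the fragments over this background were 0.847 times as high in replicate 2 as in replicate 1, and for the pair at 96073660 to 96074202 they were 2.09 times as high. The blocks were split after the positions were seen, so their difference was not tested.

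**Figure D5:**
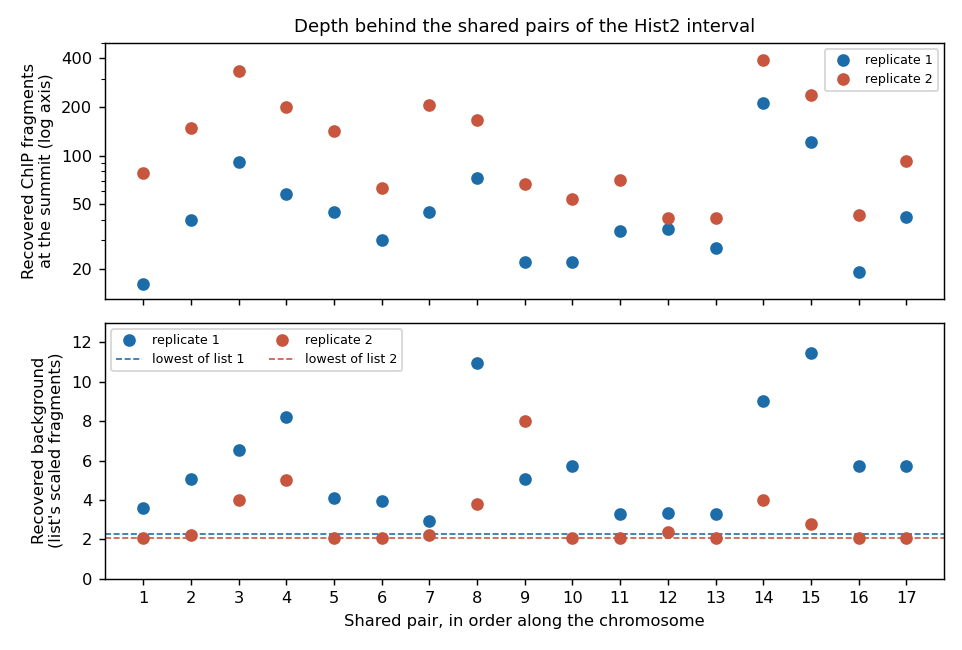
For each of the 17 pairs in order along the chromosome, the upper plot gives the recovered ChIP fragments at the summit (log axis) and the lower one the recovered background, by replicate, with dashed lines at the lowest background of each list (2.28 and 2.07). Replicate 2 has more fragments in every pair, not corrected for depth, and replicate 1 has the higher background in 16 of 17.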

How the data were processed

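Peak lists of the 2 SSRP1 ChIP samples were used, called separately per the peak names in the files. The submitters' processing notes name STAR, MACS2, deepTools and the build mm9, with no versions, settings or controls. Each deposited list holds, per peak, a fold enrichment as a ratio. It also has the −log10 of p and of q by the authors. A deposited score was left aside. No read totals were used. Peak order, widths, overlaps, pairs and medians were computed with Python 3.11.15, pandas 2.3.3 and scipy 1.17.1, and promoters were aligned with Biopython 1.88. Pileup and background were solved for from (pileup + 1) / (background + 1) and the Poisson tail of the pileup, as MACS2 computes them; fragments came out whole within 0.01 with steps of 1 and 0.416. Scripts were tested on simulated data. With 2 lists no test between samples was possible, and peaks are no replicates, so none was run. The 10 strongest pairs by the lower fold were to be given in full, all shared sites by position, and unshared peaks by name where 5 or fewer, otherwise the 3 strongest; the other 7 of replicate 2 were named after their values were seen. The interval, members and lists were chosen with earlier results of these data known. Alternatives were the overlap rule, minimum −log10 q, interval edge, merging, background and each list alone.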

Additional observations from a re-analysis of the deposited data

How the results depend on the processing

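Of 63 recomputed values 16 moved. Only the log2 ratios could have changed sign, and none of them did. A count moved when it changed by over 1.5 times, a share when it left its binomial interval, and other values when they changed by over 1 SD (between lists, or over pairs). The 47 others include 8 of single lists, which cannot move by this measure, and 8 unchanged ones at the interval's edges, which no peak crosses. Counts, widths, folds and spacings are means of the 2 lists (25 peaks, 426 bp, 7.57 and 6965 bp). With −log10 q of 5 or more the width was 499 bp and the spacing 8281 bp. With 10 or more they were 579.5 and 12311 bp, with 15 peaks and a fold of 10.6. With peaks merged within 1 kb the width was 472 bp and the spacing 12017.5 bp. Summits within 200 bp gave replicate 1 a shared fraction of 65.2%. With fragments over the lowest background the median was 13.3 and the median log2 ratio 0.056. Alternatives chosen after seeing the data were equal list lengths (width 502 bp, shared fraction of replicate 1 100.0%) and leaving out peaks of high background (393 bp, spacing 11636.5 bp, shared fraction of replicate 2 32.0%). Equal list lengths left 14 peaks of replicate 1 in the interval, and its shared fraction elsewhere on chromosome 3 was 35.6%. For replicate 2 the shared fraction was then 48.1%, against 44.2% elsewhere. Stricter minimums leave fewer peaks, and leaving out peaks of high background leaves replicate 2 fewer peaks of replicate 1 to overlap. Otherwise the cause was not tested. Each list alone gave 23 to 27 peaks, 416 to 436 bp, folds of 6.29 to 8.86 and spacings of 6317 to 7613.5 bp. No paired analysis was possible because only ChIP peak lists were used. Apart from the background inside those lists, which may come from the inputs, no input value could be matched to its ChIP number. The weakest summits had 15 fragments in replicate 1 and 31 in replicate 2, and there are only 2 lists.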
